A study of Mus musculus with 32 samples.

Results

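Nuclear genes of the subunits of respiratory complex I were examined in the gastrocnemius muscle of mice with a deletion of Sirt1 directed at SF1 neurons. The members are all entries of the deposited table whose symbol begins with Ndufa, Ndufb, Ndufc, Ndufs or Ndufv followed by a number, and assembly factors (Ndufaf) were not counted. This gave 36 genes of the 16634 entries in the table, each with an entry of its own and none listed at 0 in any library. One further subunit gene known by its role, Ndufb1, has no entry under that symbol and was not analysed here.

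The mRNA of gastrocnemius was sequenced from 32 mice aged 10 weeks, of mixed genetic background. Mutants carried Sf1-Cre and 2 floxed Sirt1 alleles (Sf1-Cre; Sirt1loxP/loxP), and controls carried the floxed alleles without Cre (Sirt1loxP/loxP). Tissue was taken at Zeitgeber time (ZT) 0, 6, 12 and 18 h, with 4 mice of each genotype at each time, and all groups shared the floxed alleles. Cre was directed at SF1 neurons of the brain while the RNA came from muscle. Whether the deletion was confined to these neurons was not tested here. An effect of the Cre transgene itself and one of the Sirt1 deletion cannot be told apart, since no group carried Cre alone. The series compared the daily course of muscle RNA in mice with and without this deletion.

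Complex I, the NADH dehydrogenase of the inner mitochondrial membrane, takes electrons from NADH, passes them to ubiquinone and pumps protons. Its matrix arm holds the sites of NADH oxidation and electron transfer, and its membrane arm holds the proton channels. Core subunits carry out the chemistry and are found also in bacteria, while accessory subunits surround them in animals; some core subunits are encoded by the mitochondrial genome and are not among the genes described here. Muscle is rich in this complex, since contraction is paid for in large part by oxidative phosphorylation.

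All values are FPKM, reads scaled to transcript length and library size, as computed by the authors, so that levels can be set beside each other between genes. Differences are mutant minus control on the scale of log2(FPKM + 1), from a limma model fitted to the 11975 genes with at least 1 FPKM in at least 4 libraries. A gene was called when its p, adjusted by the Benjamini-Hochberg method over all 11975 genes, was under 0.05. All 36 subunit genes were tested. In bulk tissue, fewer muscle cells and less of an RNA per cell cannot be told apart.

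Relative depth of the libraries, estimated from the steps between low values, ran between 0.802 and 1.37 times the mean, and absolute depth is unknown. Markers of fast muscle were high: Ckm, the muscle creatine kinase, had 15672 to 22140 FPKM in every library. Of the heart genes examined, Nppa and Ryr2 stayed under 1 FPKM, while Myh6 had 3.48 to 22.6 FPKM (median 9.14). Some abundant genes are listed at 0 in part of the libraries, among them Acta1, the actin of skeletal muscle, in 12 of 32, and these zeros are not read as absence. Of the mutant libraries, 3 stood apart: over the 36 subunit genes, the deviations from each gene's mean had an SD of 0.453 in ZT12 library 1, 0.426 in ZT0 library 2 and 0.351 in ZT18 library 0, on the log2 scale. The next library had 0.261. The same 3 libraries also had the widest spread over 580 genes above 100 FPKM, with SDs of 0.503, 0.585 and 0.434, against 0.35 or less in the others. Results are therefore also given without them.

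Subunit genes were among the most abundant RNAs of the muscle. Of the 36 genes, 34 lay above the 90th percentile of all entries and 17 above the 99th, and 32 had a mean level between 100 and 1000 FPKM. The highest was Ndufa4, whose product was first taken for a complex I subunit and is now assigned to cytochrome c oxidase (complex IV). It had 1126 to 1955 FPKM in mutants (median 1382, n = 16) and 1070 to 1895 FPKM in controls (median 1418, n = 16). Next came Ndufb8 and Ndufb9, accessory subunits of the distal membrane arm, with means of 870 and 690 FPKM over all libraries. Ndufa3 of the proximal membrane arm had 611 FPKM. The lowest were Ndufb4 with 26.9, Ndufa12 with 29.3, Ndufa11 with 45.6 and Ndufs5 with 107 FPKM. The highest and the lowest of the 36 genes differed 53.6-fold, or 32.4-fold with Ndufa4 left aside.

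The 7 core genes include those of the proteins that hold the flavin and the iron-sulphur clusters of the matrix arm. Ndufs7, which carries the last cluster before ubiquinone, had 474 to 736 FPKM in mutants (median 573) and 493 to 697 in controls (median 593). Ndufv1, which binds NADH and the flavin, had 260 to 370 FPKM in mutants (median 331) and 269 to 371 in controls (median 344). The ranges of the genotypes overlap over almost their whole length for each of these genes. Ndufs1, the largest subunit of the matrix arm, had 181 to 283 FPKM in mutants (median 240) and 198 to 273 in controls (median 238). Ndufv2, the partner of Ndufv1, had 189 to 269 FPKM in mutants (median 224) and 184 to 267 in controls (median 220). Ndufs8, another iron-sulphur protein, had 179 to 265 FPKM in mutants (median 206) and 180 to 237 in controls (median 210). Ndufs3 was the lowest core gene, with 102 to 160 FPKM in mutants (median 121) and 103 to 148 in controls (median 117). Over all libraries the median gene level was 239 FPKM for the core, 286 for the 9 accessory genes of the matrix arm, 203 for the 9 of the proximal membrane arm and 354 for the 10 of the distal membrane arm.

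**Figure D1:**
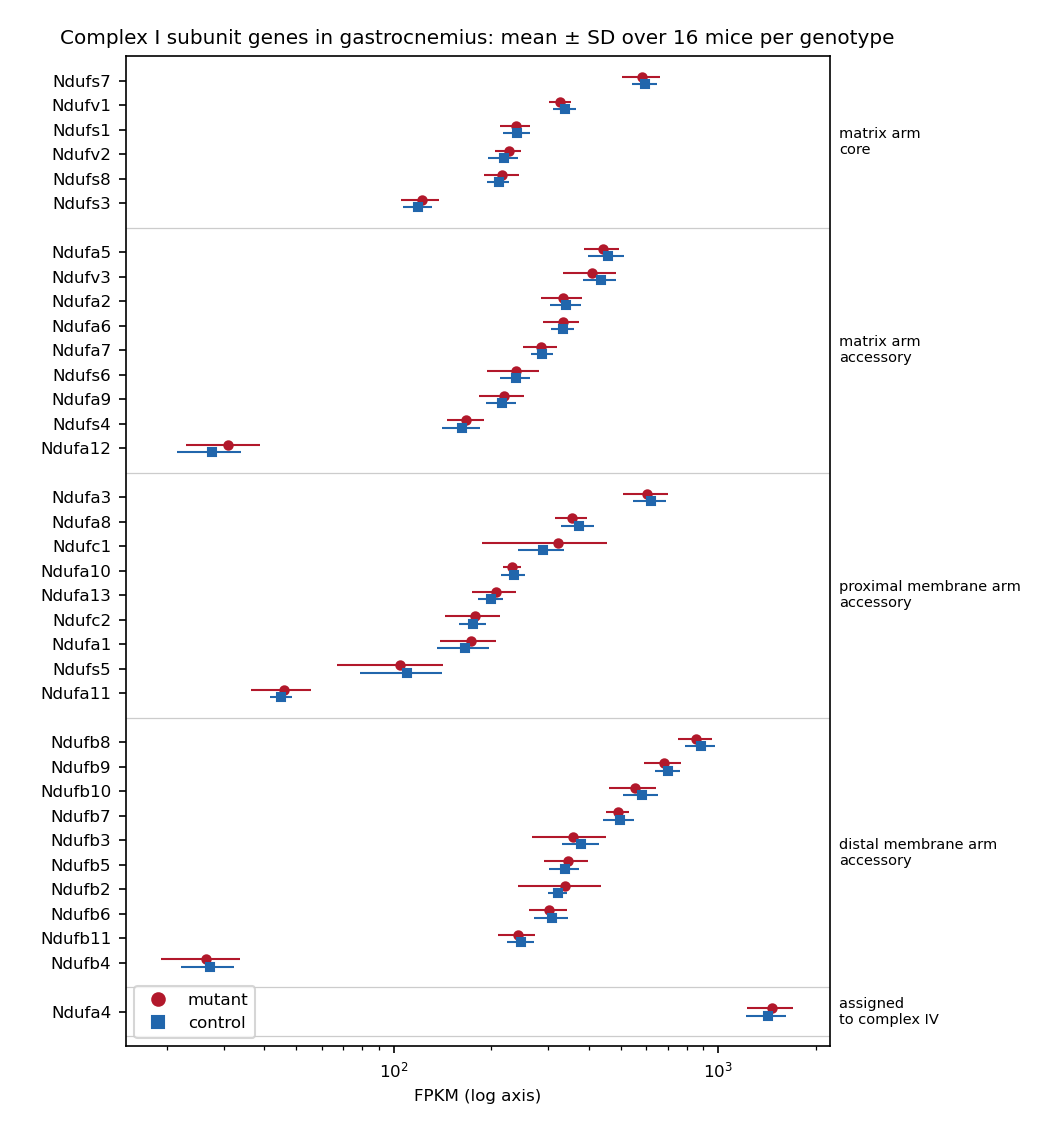
Level of 35 of the 36 genes in FPKM (log axis), grouped by the place of the subunit in the complex; points are means and bars SDs over 16 mutants (red circles) and 16 controls (blue squares). Ndufa4 lies highest at 1441 FPKM and Ndufb4 lowest at 26.9 FPKM over all libraries, and the bars of the genotypes overlap for every gene shown.

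Most genes varied little between mice. The median coefficient of variation over the 32 libraries was 12.6%, against 14.1% for the 587 genes above 100 FPKM. Ndufa10, an accessory subunit of the membrane arm, varied least at 7.24%, and Ndufv1 followed at 7.90%. The most variable were Ndufc1 at 32.8%, Ndufs5 at 31.8%, Ndufa12 at 24.6%, Ndufb4 at 23.1%, Ndufb2 at 21.0% and Ndufb3 at 19.9%. In 4 of these 6 genes (Ndufs5, Ndufa12, Ndufb4, Ndufb3) the transcript has a processed pseudogene at 95% identity or more over at least 100 bases. Over all members, the 7 with such a copy had a median coefficient of 19.9% (11.4 to 31.8%), against 12.5% (7.24 to 32.8%) for the 29 without. Of the 7, Ndufb4, Ndufa12 and Ndufs5 were also among the lowest genes of the set, and the part of the level was not tested. Counting every near-identical stretch, those shared with other coding genes included, the 15 genes with a match had a median of 13.3%, against 12.5% for the 21 without. No source used here says how reads were divided between copies, so values of the 7 genes with a pseudogene copy (Ndufa12, Ndufb3, Ndufb4, Ndufb11, Ndufs3, Ndufs5 and Ndufs6) are uncertain. The same doubt holds for genes that share a stretch with another coding gene. Among them are Ndufa13 (375 bases with Tssk6), Ndufb6 (257 with Smim27) and Ndufb5 (216 with Mrpl47), each at 100% identity. Some entries cover far more than the gene: that of Ndufs7 spans 672.3 kb, against 7.7 kb in GENCODE, that of Ndufb11 35.6 kb against 2.3 kb and that of Ndufa2 9.5 kb against 2.2 kb. Whether the values of these genes hold reads from elsewhere in the entry was not tested.

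Ndufs5 and its copy were set side by side. Ndufs5 encodes an accessory subunit of the membrane arm, and its processed pseudogene BC002163 on chromosome 16 shares 319 bases at 99.4% identity and has an entry of its own, which spans 734.8 kb. The ratio of BC002163 to Ndufs5 lay between 4.71 and 5.84 in 11 libraries and between 1.06 and 1.49 in the other 21, with none between. The 11 libraries comprised 7 mutants (1 at ZT0, 1 at ZT6, 3 at ZT12, 2 at ZT18) and 4 controls (2 at ZT0, 1 at ZT6, none at ZT12, 1 at ZT18). In them Ndufs5 had 35.9 to 85.1 FPKM, and in the others 111 to 153 FPKM. At ZT12 Ndufs5 had 128, 35.9, 66.5 and 57.9 FPKM in mutants, against 141, 117, 125 and 122 in controls. BC002163 in the same libraries had 151, 209, 349 and 301 FPKM in mutants, against 177, 144, 148 and 135 in controls. Where Ndufs5 was low its copy was high, and the sum of both was 280, 245, 416 and 359 FPKM in mutants, against 317, 261, 272 and 257 in controls. FPKM are scaled to transcript length, so a sum over 2 entries need not follow reads. Over all times the sum was 245 to 552 FPKM in the 11 libraries and 245 to 378 in the other 21. The sum therefore cannot show whether the lower Ndufs5 mean of ZT12 mutants is a lower level of its RNA. Whether reads moved between the entries was not tested.

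**Figure D2:**
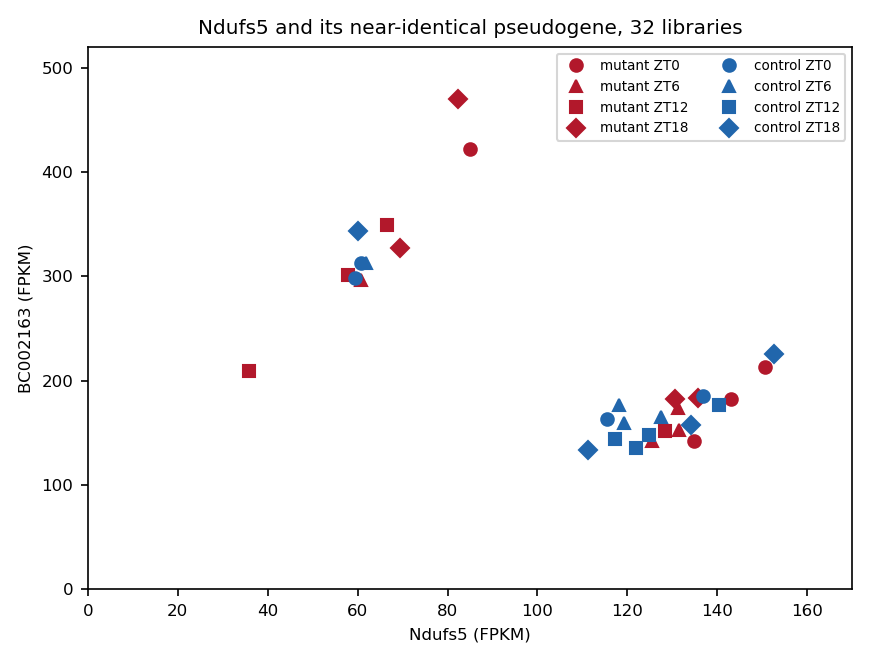
Ndufs5 (horizontal, FPKM) against its processed pseudogene BC002163 (vertical, FPKM) in 32 libraries, mutants in red and controls in blue, with one symbol for each time. The libraries fall into a band of 11 with low Ndufs5 (35.9 to 85.1 FPKM) and a band of 21 with Ndufs5 above 111 FPKM. BC002163 had 209 to 470 FPKM in the first and 134 to 225 in the second, so its ranges overlap. Of the 4 mutants at ZT12, 3 lie in the first band, and none of the controls at ZT12 does.

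Promoters are shown for the 4 genes with the smallest p at ZT12, the time with the largest share of subunit genes at an unadjusted p under 0.05. Each runs from 250 bases before to 50 bases after the start that RefSeq gives in GRCm38.p6, all on the minus strand, in lower case. Capitals mark matches to the motifs searched on both strands: GCGC, any base and TGCGC for NRF1, AANATGGCG for YY1 and AAGGTCA for ERR (read as TGACCTT on the other strand). Ndufa1 lies at chrX:37191189-37191488, Ndufa9 at chr6:126849095-126849394, Ndufs5 at chr4:123718137-123718436 and Ndufs6 at chr13:73328433-73328732.
Ndufa1: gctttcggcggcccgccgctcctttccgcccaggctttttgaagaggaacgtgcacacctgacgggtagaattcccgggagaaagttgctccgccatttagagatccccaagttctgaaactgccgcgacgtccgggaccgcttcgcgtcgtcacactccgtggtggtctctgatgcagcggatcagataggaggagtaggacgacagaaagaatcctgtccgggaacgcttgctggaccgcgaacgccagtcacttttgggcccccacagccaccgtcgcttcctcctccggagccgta
Ndufa9: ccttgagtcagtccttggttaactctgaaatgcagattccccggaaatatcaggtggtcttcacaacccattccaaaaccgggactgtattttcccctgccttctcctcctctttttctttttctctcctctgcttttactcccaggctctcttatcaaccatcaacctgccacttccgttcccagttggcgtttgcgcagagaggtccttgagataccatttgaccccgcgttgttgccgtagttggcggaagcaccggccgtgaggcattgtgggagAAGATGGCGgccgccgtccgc
Ndufs5: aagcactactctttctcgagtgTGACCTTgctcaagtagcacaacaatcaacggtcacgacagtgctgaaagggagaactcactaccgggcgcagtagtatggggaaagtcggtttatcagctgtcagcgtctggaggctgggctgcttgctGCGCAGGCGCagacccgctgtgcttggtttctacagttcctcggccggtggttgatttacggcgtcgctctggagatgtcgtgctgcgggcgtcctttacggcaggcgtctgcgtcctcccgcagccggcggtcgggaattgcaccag
Ndufs6: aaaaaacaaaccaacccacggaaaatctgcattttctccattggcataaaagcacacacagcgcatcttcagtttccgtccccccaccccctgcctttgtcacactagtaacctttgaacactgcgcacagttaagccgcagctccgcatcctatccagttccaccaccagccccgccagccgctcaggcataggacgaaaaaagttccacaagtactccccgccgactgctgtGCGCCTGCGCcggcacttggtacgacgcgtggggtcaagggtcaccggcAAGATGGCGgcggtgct

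RefSeq promoters were found for 32 of the 36 genes. NRF1, YY1, ERR and ETS factors such as GABPA are known regulators of nuclear genes of the respiratory chain. The NRF1 letters stood in 7 of 32 promoters (21.9%), against 4.78% of all 27025 promoters of the table and 10.8% of those of 8940 tested genes. The YY1 letters stood in 6 (18.8%), against 2.51% and 5.50%. The ERR letters stood in 3 (9.38%), against 4.66% and 3.23%, and the ETS letters CCGGAAG in 4 (12.5%), against 9.12% and 18.2%. Of letters linked to the clock or to cyclic AMP, the E-box CACGTG stood in 2 (6.25%, against 7.24% and 10.6%). The D-box TTANNTAA stood in 1 (3.12%, against 6.08% and 3.20%) and the CRE TGACGTCA in 3 (9.38%, against 1.88% and 3.33%). These are descriptions of the letters in a window of 300 bases. None of the 7 motifs was found in the window of Ndufa1, while Ndufs6 held both the NRF1 and the YY1 letters.

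Over all times, mutants and controls had close levels of complex I genes. The summed level of the 36 genes was 10943 to 14543 FPKM in mutants (median 12384, n = 16) and 10817 to 14322 FPKM in controls (median 12377, n = 16). No subunit gene was called, against 0.0251% of all genes (3 of 11975). The mean was higher in mutants for 14 of 36 genes (51.3% of all genes tested), with a median log2 difference of -0.02, against 0.00 for all genes. An unadjusted p under 0.05 was found for 1 gene (2.78% of the members, against 6.48% of all genes), and for none without the 3 libraries of wide spread. Ndufa12, an accessory subunit of the matrix arm, averaged 30.9 ± 7.97 FPKM in mutants and 27.7 ± 6.20 in controls (SD, n = 16 each), a difference of 0.14 (SE 0.08, adjusted p = 0.762, limma).

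By time, the same genes leaned in opposite directions at ZT0 and ZT6. At ZT0 the summed level was 14543, 13308, 13356 and 13170 FPKM in mutants, against 14322, 12414, 10817 and 11835 FPKM in controls. At ZT6 it was 11383, 11874, 12380 and 11247 FPKM in mutants, against 12791, 13280, 13178 and 12191 FPKM in controls. At ZT0 every mutant lay above 3 of the 4 controls, while control library 0 was higher than 3 of the mutants. At ZT6 1 mutant lay above the lowest control and the other 3 lay below all controls. As a share of all FPKM in a library, the 36 genes made up 2.40 to 2.59% in mutants and 2.50 to 2.60% in controls at ZT6, where total FPKM averaged 467703 in mutants and 505165 in controls. At ZT0 the shares were 2.64 to 2.84% in mutants and 2.39 to 2.90% in controls. Totals include the abundant genes that are listed at 0 in some libraries.

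**Figure D3:**
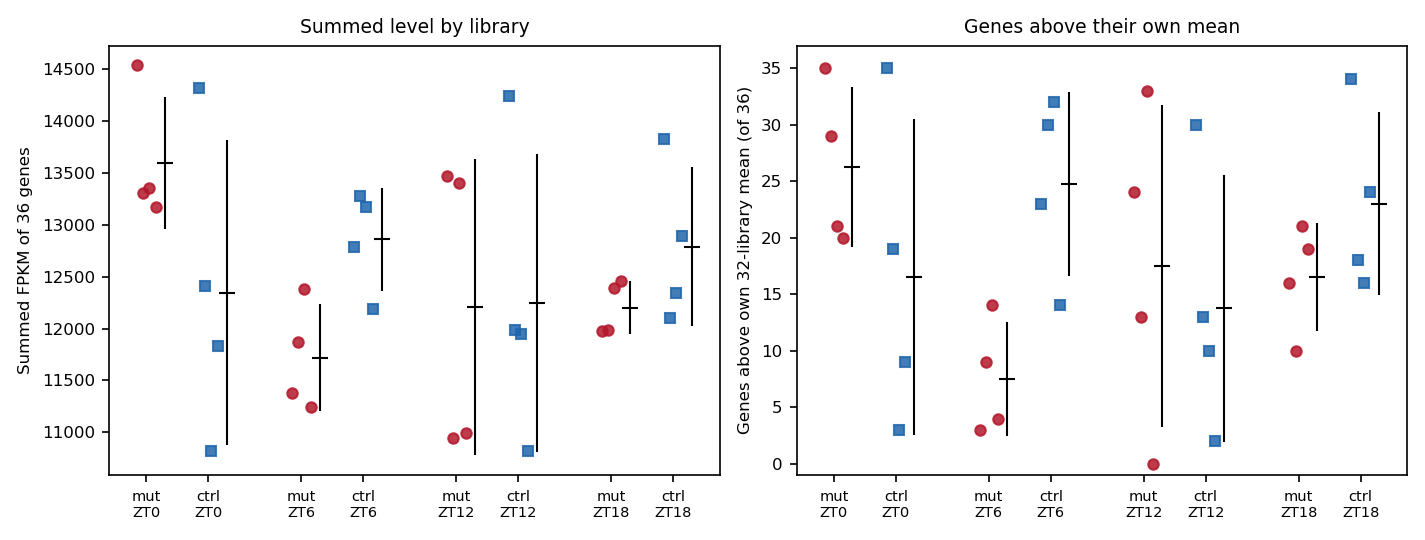
Left, summed FPKM of the 36 genes in each library; right, number of the 36 genes above their own mean over 32 libraries. Points are libraries (4 per group, mutants in red left of controls in blue at each time), with mean and SD beside them. At ZT6 mutants had 3 to 14 genes above their own mean, against 14 to 32 in controls. At ZT12 the libraries of both genotypes spread over nearly the full scale, as did the controls at ZT0 (3 to 35 genes).

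At ZT0, 33 of 36 subunit genes had a higher mean in mutants, against 47.5% of all genes tested. The median log2 difference was 0.15, against -0.01 for all genes, and the largest difference was 0.52, for Ndufs5. Values of Ndufs5 are uncertain because of its copy: 2 of 4 controls and 1 of 4 mutants at ZT0 lay in the band with low Ndufs5. No gene was called (0.0167% of all genes), and the smallest adjusted p was 0.530. An unadjusted p under 0.05 was found for 2 genes (5.56%, against 8.46% of all genes). Ndufb5, an accessory subunit of the distal membrane arm, had 374, 381, 471 and 370 FPKM in mutants, against 387, 318, 291 and 295 FPKM in controls. Its difference was 0.31 (SE 0.12, adjusted p = 0.530, limma), and 1 control lay above 3 of the mutants. Ndufv2 had 250, 236, 269 and 229 FPKM in mutants, against 267, 209, 191 and 194 in controls, a difference of 0.20 (SE 0.09, adjusted p = 0.587). Again control library 0 lay within the range of the mutants. No gene had all mutants on one side of all controls, which 2.61% of all genes had. By place in the complex, means were higher in 6 of 7 core genes, 9 of 9 accessory genes of the matrix arm, 8 of 9 of the proximal and 9 of 10 of the distal membrane arm. Among the 3 exceptions were Ndufa3 with -0.05 and Ndufb3 with -0.04. Without the 3 libraries of wide spread, 34 of 36 means were higher and 8 genes had an unadjusted p under 0.05 (against 13.1% of all genes in that fit), again with none called.

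At ZT6, 34 of 36 genes had a lower mean in mutants (2 higher, against 42.5% of all genes). The median log2 difference was -0.16, against -0.03 for all genes, with single genes between -0.37 and 0.06. No gene was called (0.0167% of all genes), and the smallest adjusted p was 0.471. An unadjusted p under 0.05 was found for 4 genes (11.1%, against 10.4% of all genes). In 12 of 36 genes all 4 mutants lay below all 4 controls, against 8.73% of all genes, and in none above (12.1% of all genes in either direction). These 12 were Ndufa1, Ndufa6, Ndufa9, Ndufa10, Ndufa13, Ndufb5, Ndufb7, Ndufb9, Ndufb11, Ndufs7, Ndufs8 and Ndufv2, named after their values were seen. Ndufa9, an accessory subunit of the matrix arm that binds a nucleotide, had 206, 192, 190 and 183 FPKM in mutants, against 231, 252, 243 and 211 FPKM in controls. Its difference was -0.28 (SE 0.11, adjusted p = 0.471, limma). Ndufb5 had 278, 315, 333 and 283 FPKM in mutants, against 395, 349, 368 and 342 FPKM in controls (-0.27, SE 0.12, adjusted p = 0.471). Ndufa1, a small membrane protein needed for assembly of the membrane arm, had 136, 136, 149 and 116 FPKM in mutants, against 151, 157, 178 and 162 in controls (-0.28, SE 0.12, adjusted p = 0.471). Ndufc2 had 150, 141, 165 and 160 FPKM in mutants, against 202, 189, 193 and 163 in controls, so that 1 mutant passed 1 control (-0.27, SE 0.13, adjusted p = 0.471). Without the 3 libraries of wide spread, none of which is in this comparison, 34 of 36 means were lower and 8 genes had an unadjusted p under 0.05 (against 14.9% of all genes in that fit).

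The lean at ZT6 moved with the scaling between libraries. With libraries scaled by the median ratio of genes, 6 of 36 means were higher at ZT6 and 4 genes had all mutants below all controls (5.29% of all genes). With quantile normalisation, 17 of 36 were higher, the median difference was -0.00472 and 1 gene had separate groups, mutants below (5.01% of all genes). At ZT0 the same settings gave 33 and 30 genes higher, with medians of 0.14 and 0.07. With array weights, which count libraries of wide spread less, Ndufa9 was called at ZT6 (-0.31, adjusted p = 0.0440, limma), among 232 genes called in all (1.94%). Of genes above 1000 FPKM in any library, 0 to 4 of 71 were listed at 0 in a library, and whether these zeros bear on quantile normalisation was not tested.

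In the values as deposited, genes of the other respiratory complexes leaned the same way. These lists were not examined under the other scalings between libraries, with which the ZT6 lean of the subunit genes shrank. Whether the shared direction at ZT6 depends on the scaling was therefore not tested. The lists were chosen with these data known and no gene in them was called between genotypes. Assembly factors of complex I, which build the arms but stay out of the finished enzyme, were higher in mutants in 13 of 15 at ZT0 (median 0.17) and in 1 of 15 at ZT6 (median -0.17). Among them Ndufaf7, a methyltransferase, had the smallest p at ZT0 (0.31, SE 0.09, adjusted p = 0.391), and Ecsit at ZT6 (-0.29, SE 0.10, adjusted p = 0.471). Subunits of complex II were higher in 4 of 4 at ZT0 and 0 of 4 at ZT6, of complex III in 8 of 9 and 0 of 9, of complex IV in 13 of 13 and 2 of 13, and of complex V in 12 of 15 and 2 of 15. Enzymes of the citric acid cycle were higher in 11 of 13 at ZT0 (median 0.09) and in 0 of 13 at ZT6 (median -0.18). Of 15 regulators of mitochondrial genes, 7 were higher at ZT0 (median -0.02) and 3 at ZT6 (median -0.05). Esrra, the estrogen-related receptor that acts on respiratory genes, had the smallest p of them at both times, with 0.24 (SE 0.12) at ZT0 and -0.36 (SE 0.12, adjusted p = 0.471) at ZT6.

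Markers of fibroblasts, lymphocytes, macrophages and endothelium leaned against the subunit genes at these times, while adipocyte markers were mostly higher at both, with none called between genotypes. Fibroblast markers were higher in mutants in 0 of 5 genes at ZT0 (median -0.32) and in 5 of 5 at ZT6 (median 0.46). Their summed level was 636 to 1398 FPKM in mutants and 827 to 1695 in controls at ZT0, and 902 to 1877 FPKM in mutants and 666 to 1005 in controls at ZT6. Lymphocyte markers were higher in 1 of 7 at ZT0 (median -0.53) and in 7 of 7 at ZT6 (median 1.40), with sums of 3.88 to 55.6 FPKM in mutants and 2.35 to 18.9 in controls at ZT6. Macrophage markers were higher in 0 of 4 at ZT0 and in 4 of 4 at ZT6 (median 0.50), and fast muscle markers in 4 of 9 and in 3 of 9 (medians -0.06 and -0.08). Adipocyte markers were higher in 5 of 7 at ZT0 and 7 of 7 at ZT6 (medians 0.09 and 0.32), endothelial markers in 1 of 5 and 5 of 5 (medians -0.18 and 0.11), and slow fibre markers in 0 of 8 and 2 of 8 (medians -0.33 and -0.20). With adipocyte and lymphocyte scores as covariates, 33 of 36 subunit genes were higher at ZT0 and 10 of 36 at ZT6. The part of other cell types in the lean was otherwise not tested.

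At ZT12 the subunit genes did not lean one way, but spread more widely than at any other time. Means were higher in mutants for 19 of 36 genes (63.6% of all genes tested), with a median of 0.03 against 0.06 for all genes and a range from -0.94 to 0.52. The lowest value was that of Ndufs5, which is uncertain because of its copy. No gene was called (0.0251% of all genes), and the smallest adjusted p was 0.101. An unadjusted p under 0.05 was found for 13 genes (36.1%, against 17.4% of all genes), 6 higher and 7 lower. The 6 higher were Ndufa1, Ndufa4, Ndufa9, Ndufa11, Ndufc1 and Ndufc2, and the 7 lower were Ndufa8, Ndufb3, Ndufb8, Ndufb10, Ndufs5, Ndufs6 and Ndufv3, and no core gene was among them. In 1 gene, Ndufa9, all mutants lay above all controls (7.4% of all genes had separate groups in either direction).

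Ndufa1 had 212, 188, 172 and 143 FPKM in mutants at ZT12, against 148, 122, 117 and 118 FPKM in controls. Only the lowest mutant fell below a control, and the difference was 0.49 (SE 0.12, adjusted p = 0.101, limma). Ndufa9 had 289, 249, 227 and 197 FPKM in mutants, against 192, 190, 184 and 171 FPKM in controls, with a difference of 0.37 (SE 0.11, adjusted p = 0.139). The groups of this gene were separate at ZT6, with mutants below, and at ZT12, with mutants above. With median ratio scaling no member had separate groups at ZT12 (3.34% of all genes had mutants below and 3.22% above), while with quantile normalisation 2 members had mutants above and 6 below (3.20% and 3.92% of all genes). Ndufs6, an accessory subunit with a zinc site, had 199, 150, 246 and 209 FPKM in mutants, against 291, 239, 248 and 238 FPKM in controls (-0.35, SE 0.13, adjusted p = 0.197). Ndufs5, described above with its copy, differed by -0.94 (SE 0.35, adjusted p = 0.191). Both genes have a pseudogene copy, and mutant library 1 was the lowest in each.

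Single libraries decided some of these values. Without mutant ZT12 library 1, which is among the 3 of wide spread, 2 genes were left at an unadjusted p under 0.05 at ZT12 (8.48% of all genes), in place of 13, and over all such alternatives the count ran from 2 to 16. Fitted on the ZT12 libraries alone, 5 genes passed that bound (12.5% of all genes). Without mutant ZT12 library 3, in which none of the 36 genes exceeded its own mean, Ndufa1, Ndufa9 and Ndufc2 were called at ZT12 (0.60, 0.46 and 0.43, adjusted p = 0.0169, 0.0307 and 0.0479, limma), among 446 genes called in all (3.72%). Without mutant ZT0 library 2, which is not in that comparison but enters the common spread, Ndufa1 and Ndufa9 were called (adjusted p = 0.0424 and 0.0488), among 262 genes in all. Without mutant ZT0 library 3, Ndufa1 was the one member called (adjusted p = 0.0292), among 96 genes in all. Over all alternatives that leave out 1 library, the adjusted p of Ndufa1 ran from 0.0169 to 0.389. Without the 3 libraries of wide spread, 7 genes were at an unadjusted p under 0.05 (13.3% of all genes), 23 of 36 means were higher and none was called. Slow fibre markers were lower in 8 of 8 genes in mutants at ZT12 (median -0.74), with sums of 620 to 2170 FPKM in mutants and 1478 to 2502 in controls. Their part in the subunit genes was not tested. At the same time complex IV subunits were higher in 12 of 13 genes (median 0.21) and assembly factors in 11 of 15 (median 0.06), with none called.

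**Figure D4:**
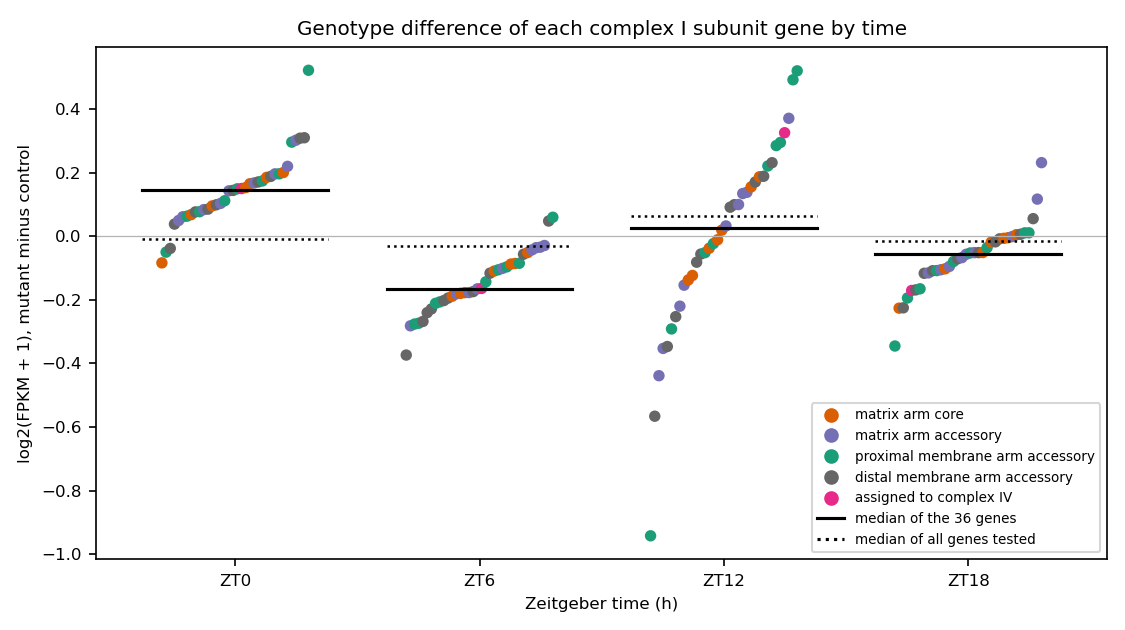
Difference of each of the 36 genes, mutant minus control on the log2(FPKM + 1) scale, at each time; each point is a gene, sorted within a time and coloured by its place in the complex. The median of the 36 genes (solid line) was 0.15 at ZT0 and -0.16 at ZT6, against -0.01 and -0.03 for all genes (dotted line). The points spread from -0.94 to 0.52 at ZT12, and the lowest of them is Ndufs5, whose values are uncertain because of its copy.

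At ZT18 no subunit gene passed the test. The summed level was 11981, 11989, 12388 and 12455 FPKM in mutants, against 13832, 12103, 12340 and 12892 FPKM in controls. Means were higher in 7 of 36 genes (44.3% of all genes), with a median of -0.05 against -0.01 for all genes. No gene was called (0.0167% of all genes), none had an unadjusted p under 0.05 (2.88% of all genes), and none had separate groups (2.51% of all genes). Ndufc1, an accessory subunit of the proximal arm, had 171, 231, 290 and 244 FPKM in mutants, against 287, 245, 304 and 341 in controls (-0.35, SE 0.23, adjusted p = 0.9995, limma), so that the groups overlapped. The count of higher genes depended on the setting: it was 4 of the 29 genes without a pseudogene copy, 13 with median ratio scaling, 15 with quantile normalisation and 17 without control ZT18 library 0. With adipocyte and lymphocyte scores as covariates it was 21, with a median of 0.02, so that the direction turned.

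Whether the genotype difference depended on time was tested directly. No subunit gene was called by the F test (0% of all genes), and the smallest adjusted p was 0.209, for Ndufa1. An unadjusted p under 0.05 was found for 10 genes (27.8%, against 14.1% of all genes): Ndufa1, Ndufa4, Ndufa9, Ndufa11, Ndufa13, Ndufb5, Ndufc2, Ndufs5, Ndufs6 and Ndufv2. Ndufa9 followed with an adjusted p of 0.217, Ndufc2 with 0.243 and Ndufb5 with 0.276. Without mutant ZT0 library 3, Ndufa1 and Ndufa9 were called (adjusted p = 0.0424 and 0.0488, limma), among 93 genes in all (0.777%). Without mutant ZT12 library 1, 5 genes had an unadjusted p under 0.05, against 11.2% of all genes. The opposite lean at ZT0 and ZT6 thus did not pass this test for any gene with all libraries included.

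Time of day was called for 2 of the 36 genes. In controls the mean of both was lowest at ZT12. In mutants Ndufa12 was low at ZT6 and ZT12 (means 24.2 and 25.2 FPKM), while Ndufa1 was low at ZT6 (134 FPKM) and not at ZT12 (179 FPKM). Over both genotypes, Ndufa12 (adjusted p = 0.00266) and Ndufa1 (adjusted p = 0.00269, limma F test) were called, against 11.6% of all genes (1395 of 11975), and 4 genes had an unadjusted p under 0.05 (11.1%, against 26% of all genes). Ndufa3, an accessory subunit of the proximal membrane arm, was called as well without the 3 libraries of wide spread (adjusted p = 0.0137). The F test also takes in the difference of ZT0 and ZT12 from ZT6 and ZT18. That part cannot be told apart from the index sequences of the libraries, described below.

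Ndufa12, an accessory subunit of the matrix arm, was the second lowest of the set. In mutants it had 43.5, 47.2, 32.2 and 33.6 FPKM at ZT0, 24.9, 30.6, 21.8 and 19.4 at ZT6, 22.5, 22.8, 30.5 and 24.8 at ZT12, and 37.96, 36.5, 32.2 and 34.6 at ZT18. In controls it had 36.1, 32.8, 29.8 and 26.5 FPKM at ZT0, 26.0, 25.6, 24.8 and 26.2 at ZT6, 23.7, 22.1, 21.7 and 22.9 at ZT12, and 41.0, 37.5, 19.0 and 27.1 at ZT18. All mutants of ZT0 and ZT18 lay above all mutants of ZT6 and ZT12. In controls 1 library of ZT18 lay below all others. A 24 h rhythm was called in mutants (amplitude 0.41 on the log2 scale, peak at ZT 21.2 h, adjusted p = 0.00843) and not in controls (0.25, peak at 22.3 h, adjusted p = 0.159). Without that control library of ZT18 (library 2) it was called in controls too (adjusted p = 0.0257). The rhythms were not shown to differ (unadjusted p = 0.297, adjusted p = 0.902). This gene has a processed pseudogene at 99.5% identity over 402 bases, and the transcripts were not separated.

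Ndufa1 followed a similar course in controls. It had 186, 193, 172 and 207 FPKM at ZT0, 151, 157, 178 and 162 at ZT6, 148, 122, 117 and 118 at ZT12, and 182, 168, 186 and 219 at ZT18 in controls. A rhythm was called there (amplitude 0.31, peak at 22.7 h, adjusted p = 0.00725), with every ZT12 control below every control of the other times. In mutants it had 216, 222, 219 and 144 FPKM at ZT0, 136, 136, 149 and 116 at ZT6, 212, 188, 172 and 143 at ZT12, and 181, 174, 164 and 193 at ZT18. The ZT6 mutants had the lowest mean, though 1 mutant each of ZT0 and ZT12 lay in their range, and no rhythm was called (amplitude 0.22, peak at 19.4 h, adjusted p = 0.103). Without mutant ZT0 library 3 it was called in mutants too (adjusted p = 0.0130). The difference between the rhythms had an unadjusted p of 0.0421 and an adjusted p of 0.880.

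**Figure D5:**
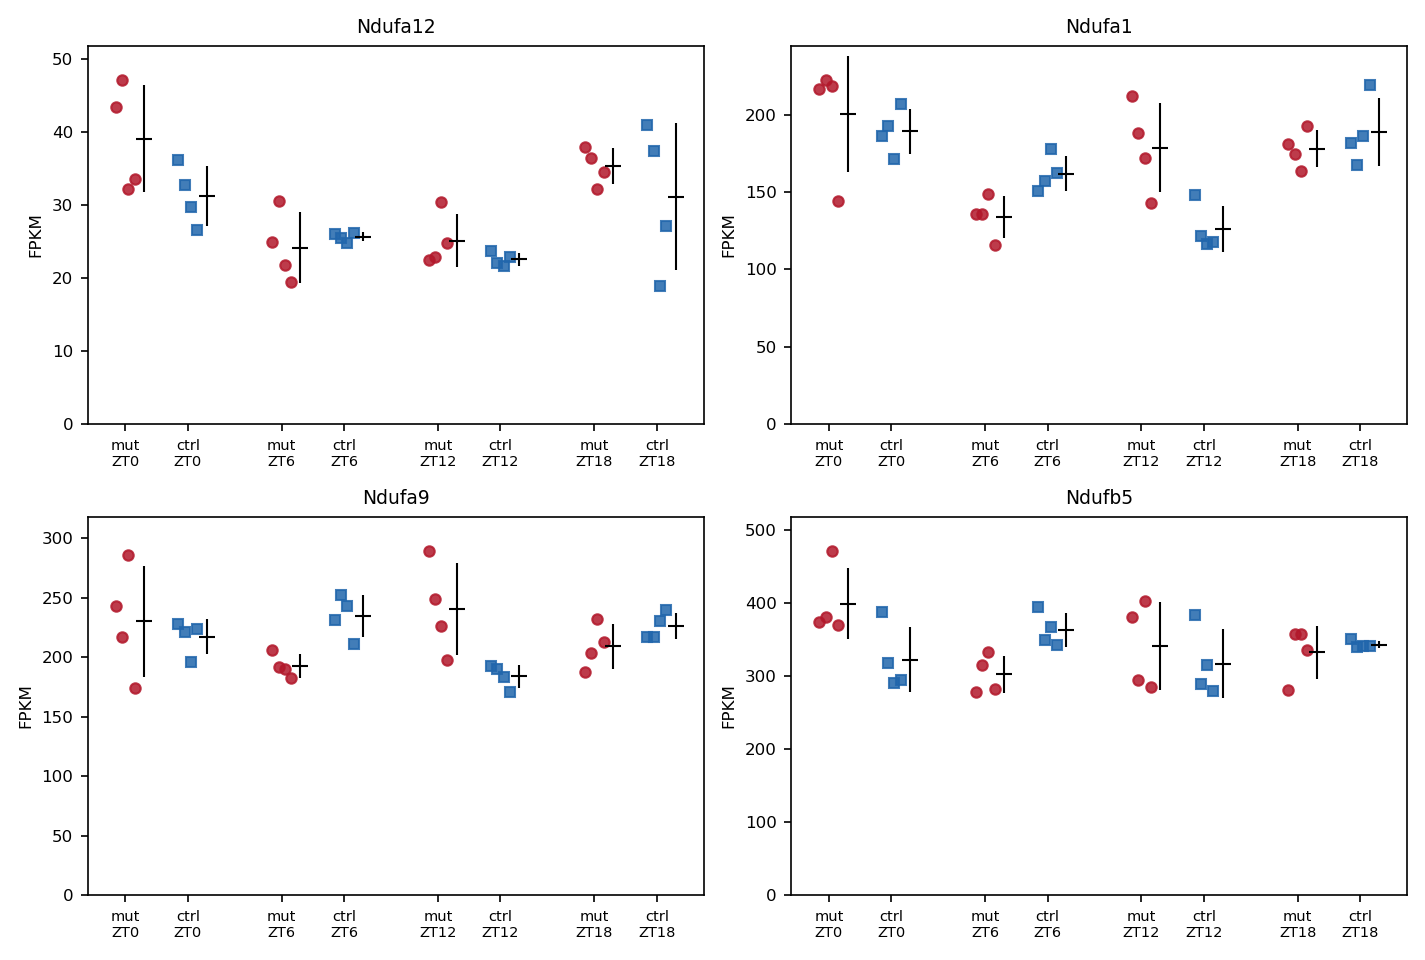
FPKM of Ndufa12, Ndufa1, Ndufa9 and Ndufb5 in each library at each time (mutants, red circles, left of controls, blue squares; 4 libraries per group, with mean and SD beside them). Ndufa12 was higher at ZT0 and ZT18 than at ZT6 and ZT12 in mutants, Ndufa1 was lowest at ZT12 in controls and at ZT6 in mutants, and Ndufa9 had separate genotypes at ZT6 and ZT12. Ndufb5 had separate genotypes at ZT6.

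In the separate rhythm tests 1 of 36 genes was called in mutants (3.92% of all genes) and 1 in controls (5.55% of all genes), Ndufa12 and Ndufa1. Without mutant ZT0 library 2, Ndufs6 (adjusted p = 0.0484) and Ndufa3 (adjusted p = 0.0312) were called in mutants too, among 571 genes in all (4.77%). An unadjusted p under 0.05 was found for 4 genes in mutants (11.1%, against 14.4% of all genes) and for 2 in controls (5.56%, against 19.4%). In mutants these were Ndufa12, Ndufa1, Ndufs6 (amplitude 0.22, peak at 22.2 h) and Ndufs5 (0.47, peak at 0.38 h). Values of Ndufs5 are uncertain because of its copy. Its lowest mutant group, ZT12, had 3 of 4 libraries in the band with low Ndufs5, against 1 or 2 in the other mutant groups. Whether its amplitude and peak follow these bands was not tested. No rhythm differed between genotypes after adjustment (0% of all genes), with the smallest adjusted p at 0.880, and 5 genes had an unadjusted p under 0.05 (13.9%, against 5.34% of all genes): Ndufs6, Ndufs5, Ndufa8, Ndufa1 and Ndufb8. The doubt about Ndufs5 holds for this difference too. Without mutant ZT12 library 1 none of the 36 was under that bound (4% of all genes), and leaving out other single libraries gave up to 9.

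A further contrast set ZT0 and ZT12 against ZT6 and ZT18 over both genotypes. Per the labels these pairs of times also carried different sets of index sequences, so that a component of 12 h and the layout of the libraries cannot be told apart. No subunit gene was called (0.0668% of all genes), and the smallest adjusted p was 0.218, for Ndufs1. Unadjusted p under 0.05 was found for 4 genes (11.1%, against 14.1% of all genes): Ndufs1 (-0.14, SE 0.05), Ndufb10 (-0.17, SE 0.07), Ndufc1 (0.28, SE 0.12) and Ndufb2 (0.20, SE 0.09). Ndufc1 also had the single highest deviation of the set, with 713 FPKM in mutant ZT0 library 2, where it had 384, 316 and 274 in the other mutants of ZT0 and 361, 323, 303 and 294 FPKM in controls. That library is among the 3 of wide spread, and without them 2 genes had an unadjusted p under 0.05 in this contrast (8.13% of all genes).

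Of the other mitochondrial lists, 3 genes were called for time of day. Of all genes, 11.6% were called over both genotypes (1395 of 11975). By the rhythm tests 3.92% were called in mutants and 5.55% in controls. The 3 genes are therefore not read as a trait of these lists. Among the 13 complex IV subunits, Cox7c (adjusted p = 0.000122 over both genotypes, 0.0433 in mutants, 0.00236 in controls) and Cox6c (0.0494 over both genotypes) were called. Tfb1m, a mitochondrial RNA methyltransferase, was called over both genotypes (adjusted p = 0.0264). None of the assembly factors, of the subunits of complexes II, III and V or of the citric acid cycle enzymes was called in any test. Of the cell type markers, 4 of 5 endothelial genes were called over both genotypes (3 in controls and 1 in mutants by the rhythm tests), with Kdr, a receptor of vascular growth factor, at an adjusted p of 9.77e-06. Slow fibre markers were called in 2 of 8 genes and fast muscle markers in 1 of 9 over both genotypes (11.6% of all genes). Fibroblast markers were called in 1 of 5 in the rhythm test of controls (5.55% of all genes).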

How the data were processed

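RNA of gastrocnemius was sequenced as stranded mRNA libraries (single reads, 100 cycles), with 8 samples in each of 4 pools, per the labels' protocols; no label gives a sample's pool. The deposited values are FPKM computed by the authors, 1 per gene and library. Per the submitters' processing notes the build was mm10; aligner, quantifier and annotation are not given in the sources used here. Columns name genotype, time and a library number from 0 to 3, which is in no label; TG columns were taken as mutants and WT columns as controls. The labels describe separate mice only by their numbers, so p-values measure the spread between these samples.

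Differences were computed on log2(FPKM + 1), which understates changes of low genes. A model with 1 mean for each of 8 groups was fitted with limma 3.58.1 in R 4.3.3 (trended prior; degrees of freedom 24 residual, 3.37 prior), 2-sided, with F tests for rhythms (cosine and sine of 24 h) and for genotype by time. FPKM hold no read counts, so depth is only relative and no count model was used. Of the low values of 878 genes, 65.1% lay within 0.1 of a whole multiple of 1 step. Steps and relative depths were fitted to these same values, so the share is no independent check of them. Copies were searched with blastn 2.17.0 in GENCODE transcripts of mm10. The fit was also run on simulated data with independent errors and no effects of single libraries. That run therefore does not cover libraries of wide spread. Named genes were the core genes, the 5 highest and 5 lowest, the 4 with the smallest p in each test, every gene called, and Ndufa4. Of other lists, genes called or with the smallest p are named. Members and lists were chosen with earlier results of these data known. Another pseudocount, filters, scalings, weights, covariates, priors and leaving out each library were tried as alternatives. Values of 1 core gene are not reported here singly, though it is in all counts, sums and medians except those of single outlying libraries. Amino acid sequences were not used here.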

Additional observations from a re-analysis of the deposited data

Results flagged for a closer look

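Groups of 4 libraries were examined for 1 library far from the others, in the summed level and in 16 genes, 136 groups in all; chance alone would mark about 1 in 20 groups, and 14 were marked. The summed level of the 36 genes was 14543 FPKM in mutant ZT0 library 0, against 13170 to 13356 in the other 3. Ndufa1 had 144 FPKM in mutant ZT0 library 3 (others 216 to 222) and 148 in control ZT12 library 0 (others 117 to 122). In mutant ZT0 library 2, Ndufa3 had 441 FPKM (others 712 to 755) and Ndufb5 had 471 (others 370 to 381). In mutant ZT18 library 0, Ndufc2 had 138 FPKM (others 165 to 167) and Ndufs6 had 341 (others 229 to 245). In control ZT0 library 0, Ndufc2 had 199 FPKM (others 162 to 164) and Ndufs4 had 206 (others 143 to 144). In control ZT18, Ndufb5 had 351 FPKM in library 0 (others 340 to 341) and Ndufc2 had 166 in library 2 (others 185 to 188). Ndufs5, whose values are uncertain because of its copy, had 60.7 FPKM in mutant ZT6 library 0 (others 125 to 131) and 61.8 in control ZT6 library 0 (others 118 to 127). Ndufv3 had 450 FPKM in mutant ZT6 library 1 (others 401 to 406). Of the libraries named, mutant ZT0 library 2 and mutant ZT18 library 0 are among the 3 of wide spread.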

How the results depend on the processing

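Counts of called genes and median differences of the 36 genes were recomputed under the alternatives, 698 values in all. Of these, 686 were marked as kept. A count was kept if equal, or if it changed by a small factor without reaching or leaving 0. A median was kept if it moved by less than 0.1133, the pooled SD between libraries of a group. Direction was not part of either rule. The median at ZT18 (-0.05) reached 0.018 and that over all times (-0.02) reached 0.015, both still marked as kept. The 686 therefore says little about medians this small. Quantile normalisation gave a median of -0.00472 at ZT6. Array weights gave 1 called gene at ZT6 and 2 for the rhythm in mutants. Leaving out each library in turn gave 0 to 3 called genes at ZT12, 0 to 2 for genotype by time, 1 to 3 for the rhythm in mutants and 1 to 2 for the rhythm in controls; the cause was not tested. Without the 7 genes with a pseudogene copy, 0 genes were called for the rhythm in mutants and 1 over both genotypes, because Ndufa12 is one of them. That setting and leaving out the 3 libraries of wide spread were chosen after seeing the data. Called results of Ndufa12 and Ndufa1 held in all their alternatives: adjusted p 0.00140 to 0.0269 for Ndufa12 in mutants, 0.000359 to 0.0287 for Ndufa1 in controls, and at most 0.00973 over both genotypes. No paired analysis was possible because the labels give no shared replicate numbers. Absolute depth is unknown, and 3 mutant libraries of wide spread enter each fit unless left out.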
